A study of Arabidopsis thaliana with 12 samples.

Results

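The genes described here are 46 nuclear loci of Arabidopsis thaliana that the array annotation names only by a locus code. Their median intensity in wild type was under 1, though most of them ranked above the middle of the measured spots there. Relative to the median of its array, the intensity of each was lower on every measured array of the toc34 mutant than on every measured wild-type array. The genes were found among 3439 spots on the array. RNA of the toc34 mutant (6 arrays, replicates 1 to 6) was compared with RNA of wild type, WT (6 arrays, replicates 1 to 6), both in the ecotype Columbia 0. Per the labels, the mutant is defective in bringing proteins through the outer of the chloroplast's envelope membranes. The labels give no allele, tissue, age or growth condition. Nor do they say that the 6 arrays of a genotype stand for different plants or cultures, so the calls below weigh array-to-array spread alone, part or all of which may be technical.

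Most chloroplast proteins are encoded in the nucleus, made in the cytosol and carried into the organelle by the import complexes of the outer and inner envelope, known as TOC and TIC. TOC34 is a GTP-binding receptor of the outer complex that recognises the targeting sequence of arriving proteins. When import or plastid development is disturbed, signals from the plastid are known to alter the transcription of nuclear genes, chiefly those for photosynthesis. The genes below carry no symbol in this array's annotation.

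The members were chosen in steps. Of the 599 spots assigned to exactly 1 gene named by a locus code, 553 had a WT median intensity under 1, on the deposited linear scale. Of these, 431 had values above 0 on at least 4 arrays of each genotype and were eligible. A further 22 had too few values in toc34 only, 14 in WT only and 86 in both. Values above 0 were put on the log2 scale and each array's median was subtracted, which is called the centred log2 intensity below. The eligible spots are counted as genes below, although AT2G25870 had more than 1 of them. Its spots had differences, toc34 minus WT, of 0.34 and -0.53 in this intensity. On this scale 49 of the 431 eligible genes lay fully lower in toc34, that is 11.4% of them, and 37 (8.58%) lay fully higher, while the ranges of the other 345 overlapped. Of all 2768 spots measured often enough, named or not, 13.2% lay fully lower and 10.2% fully higher. Among the 46 tested locus-code genes with a WT median at or over 1, 14 (30.4%) lay fully lower. The rule leaves out by name AT2G35390, AT1G13370 and AT3G54210, which takes 49 to 46. AT4G01310 and AT3G27550, also left out, were eligible but did not lie fully lower.

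These genes were selected on the toc34 and WT intensities themselves, so their differences are a description and are given with no test. The differences of the 46 genes in centred log2 intensity, toc34 minus WT, ran from -3.20 to -0.73 with a median of -1.30, where the median over all 2768 tested spots was -0.10 and over the 431 eligible genes -0.03. Lower by more than 2-fold were 33 genes, by more than 4-fold 7 and by more than 8-fold 3. With an offset of 0.0411, the 10th percentile of all values above 0, added before the logarithm, these counts were 25, 3 and 0. The 37 fully higher eligible genes had differences of 0.56 to 4.28 with a median of 1.24. In the fit of limma across all spots, 20.2% of the 2768 were called lower at an adjusted p under 0.05 and 15.9% higher. That fit called all 46 genes lower, a count which the rule for choosing them all but fixes and from which nothing is read. Arrays numbered next to each other were alike, with values given further on. With these numbers as a random block (consensus correlation 0.552) the fit called 37 of the 46 lower, against 11.8% of all spots, and with them averaged 25 of the 46, against 6.34%. These counts too follow from how the genes were selected. The SE beside each difference below is that of the fit without a block, which takes all arrays as independent. Since neighbouring arrays were alike, it may be too small. In RNA of bulk samples, fewer cells of a type and less RNA per cell cannot be told apart.

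**Figure D1:**
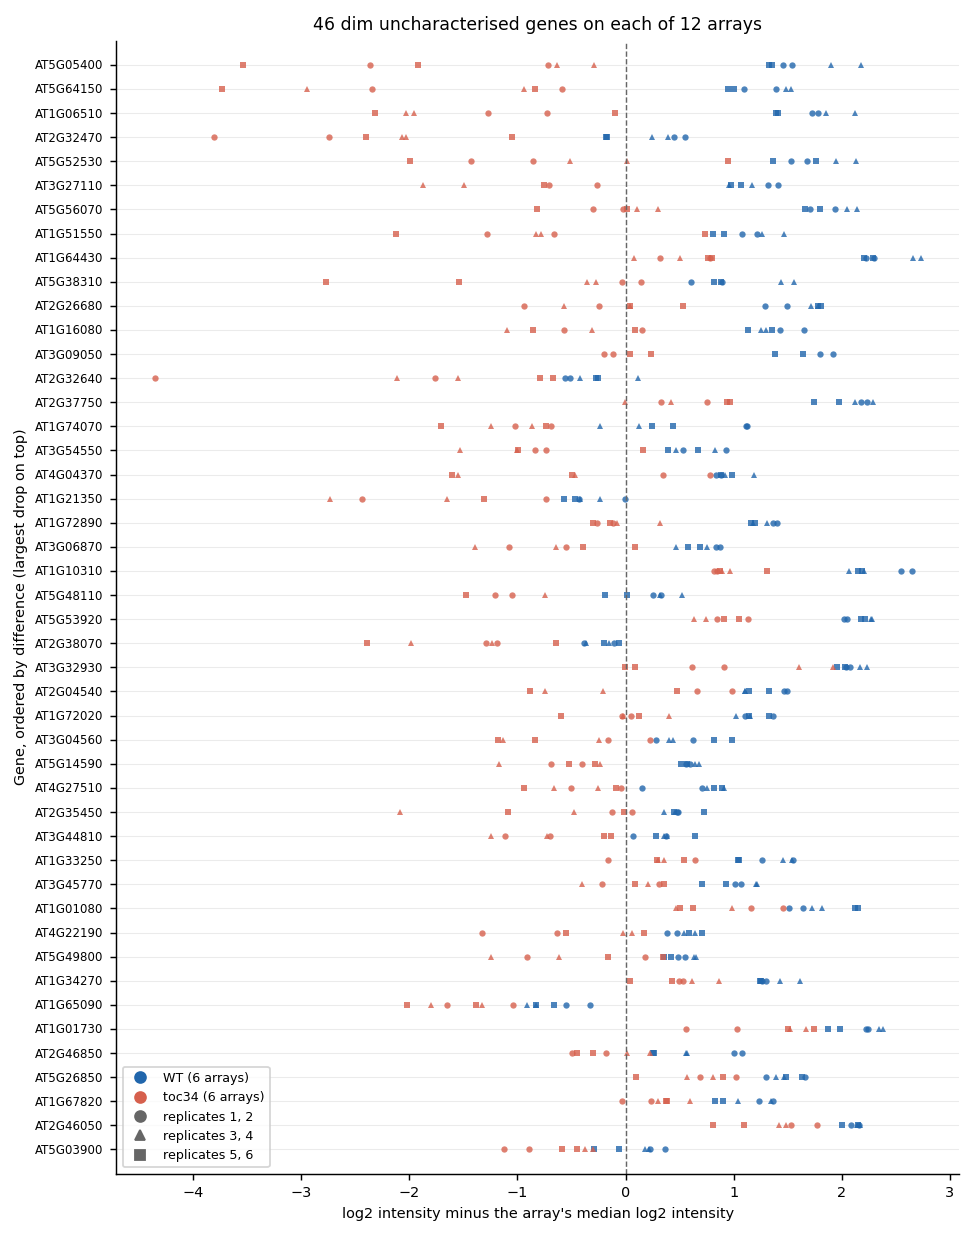
Centred log2 intensity (x axis) of each of the 46 genes (y axis, largest drop on top) on each array with a value above 0, WT in blue and toc34 in red, with symbols for the replicate numbers. In each row every red symbol lies left of every blue one, as the rule requires, and the red symbols are more widely spread than the blue in 41 of the 46 rows.

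All 46 genes matched a protein-coding locus of the RefSeq table of TAIR10.1 by gene identifier and locus tag. That table gives them no symbol or description beyond the locus code and names of sequenced clones, so the roles mentioned next are general background on 15 of the loci and were assigned with the values known. The remaining 31 are given by locus code only, which does not mean that no role or family has been described for them. The families named were not counted among all eligible genes, so whether other genes of a family went the same way was not tested.

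The first loci with a role mentioned here are a pair of genes of the nucleotide-binding resistance class, whose proteins act as intracellular receptors in plant immunity. AT5G05400 had the largest drop of the 46 without an offset, and the next to largest, after AT1G06510, with it. Its intensity ran from 0.474 to 0.947 in WT with a median of 0.533, and from 0.0136 to 0.183 in toc34 with a median of 0.0734. The highest toc34 array, replicate 4, was 1.62 below the lowest WT array, replicate 6, on the centred log2 scale, the widest gap of the 46. The difference was -3.20 (SE 0.49), or 9.22-fold lower, and with the offset -2.41, or 5.33-fold, and its toc34 values reached below that offset. AT1G72890, of the subclass with a Toll/interleukin receptor domain, ran from 0.421 to 0.518 in WT and from 0.128 to 0.277 in toc34. It was steady between arrays, with an SD of 0.10 in WT and 0.22 in toc34 in log2 units, and its difference was -1.37 (SE 0.14).

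Mitochondria contain a fatty acid synthesis pathway of their own, which is known for supplying the precursor of lipoic acid. AT2G04540, its beta-ketoacyl-ACP synthase, which extends the growing chain, ran from 0.414 to 0.535 in WT with a median of 0.463. In toc34 it ran from 0.0872 to 0.339 with a median of 0.206, lowest on replicate 6 and highest on replicate 1. AT3G45770, an enoyl reductase of the same pathway, which carries out a later step of each cycle, ran from 0.305 to 0.486 in WT and from 0.147 to 0.256 in toc34. Their differences were -1.23 (SE 0.31) and -0.97 (SE 0.17).

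Pentatricopeptide repeat proteins bind organelle transcripts and take part in their editing, cutting and stability. AT4G04370 ran from 0.338 to 0.479 in WT and from 0.0529 to 0.295 in toc34, with a difference of -1.45 (SE 0.38). Its toc34 arrays were uneven, at 0.295 and 0.217 on replicates 1 and 2 and at 0.160, 0.0763, 0.112 and 0.0529 on replicates 3 to 6. AT2G46050, of the same family, ran from 0.752 to 0.946 in WT and from 0.282 to 0.624 in toc34, with a difference of -0.77 (SE 0.17). AT1G01080, which encodes a protein with RNA recognition motifs, ran from 0.537 to 0.835 in WT and from 0.223 to 0.468 in toc34, a difference of -0.96 (SE 0.20).

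Among enzymes of metabolism, AT5G14590, an NADP-dependent isocitrate dehydrogenase, ran from 0.269 to 0.335 in WT and from 0.0986 to 0.190 in toc34, with a difference of -1.14 (SE 0.17). Its WT arrays were among the closest together, with an SD of 0.06 in log2 units. AT1G10310, a pterin aldehyde reductase of folate salvage, ran from 0.833 to 1.19 in WT with a median of 0.925, and from 0.289 to 0.433 in toc34 with a median of 0.353. Its difference was -1.35 (SE 0.15). AT5G48110, of the terpene synthase family, was at 0.166 to 0.302 on the 6 WT arrays. It was listed at 0 on toc34 replicates 3 and 6 and stood at 0.0826, 0.0739, 0.133 and 0.0568 on replicates 1, 2, 4 and 5. Its difference, over the 4 measured toc34 arrays, was -1.33 (SE 0.20).

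AT1G74070 encodes a cyclophilin-type peptidyl-prolyl isomerase, a class of proteins that helps others fold. It was at 0.410 on both WT replicates 1 and 2 and at 0.228, 0.179, 0.253 and 0.224 on replicates 3 to 6. In centred log2 intensity it was the only one of the 46 whose WT arrays spanned more than 1 unit. In toc34 it ran from 0.0494 to 0.123, and the difference was -1.51 (SE 0.27).

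The remaining loci with a role mentioned here each belong to a different family. AT3G27110, of a metallopeptidase family, ran from 0.368 to 0.504 in WT with a median of 0.439, and was 0.105, 0.142, 0.0788, 0.0611 and 0.0957 on toc34 replicates 1, 2, 3, 4 and 6. It was listed at 0 on toc34 replicate 5, which is missing from its difference of -2.17 (SE 0.27). AT1G51550, with an F-box and kelch repeats, a combination found in proteins that select targets for ubiquitination, ran from 0.328 to 0.579 in WT with a median of 0.418. In toc34 it ran from 0.0362 on replicate 5 to 0.269 on replicate 6 with a median of 0.117, so that a difference of -1.95 (SE 0.37) went with a gap of only 0.07 between the genotypes. AT1G67820, a protein phosphatase, had a WT median of 0.437 and a toc34 median of 0.208, and AT1G34270, of the exostosin glycosyltransferase family, 0.458 and 0.244. Their differences were -0.81 (SE 0.16) and -0.85 (SE 0.15).

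Of the 12 largest drops, the 9 not yet described belong to loci given by code only. AT5G64150 ran from 0.363 to 0.607 in WT with a median of 0.449, and from 0.0122 to 0.116 in toc34 with a median of 0.0611. AT1G06510 ran from 0.496 to 0.918 with a median of 0.635, and from 0.0324 to 0.148 with a median of 0.0639. These were 8.79-fold and 8.66-fold lower, with differences of -3.14 (SE 0.50) and -3.11 (SE 0.35) and gaps of 1.53 and 1.49 between the genotypes. With the offset their differences were -2.26 and -2.49, or 4.77-fold and 5.60-fold. Together with AT5G05400 they are the 3 genes past 8-fold without the offset, and with it 0 genes are.

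AT2G32470 ran from 0.165 to 0.278 in WT with a median of 0.253, and from 0.0123 to 0.0763 in toc34 with a median of 0.0418, the latter close to the offset of 0.0411. Its difference was -2.56 (SE 0.37), and -1.63 with the offset. AT5G52530 ran from 0.486 to 0.922 in WT with a median of 0.619 and from 0.0405 to 0.304 in toc34 with a median of 0.125, a difference of -2.37 (SE 0.41). Both genes were more uneven in toc34 than in WT, and in toc34 AT5G52530 was highest on replicate 5 and lowest on replicate 6.

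AT5G56070 and AT1G64430 combined a large drop with a small SE. AT5G56070 ran from 0.592 to 0.925 in WT with a median of 0.688, and from 0.0897 to 0.275 in toc34 with a median of 0.165. AT1G64430 ran from 0.864 to 1.40 in WT with a median of 0.925, and from 0.213 to 0.314 in toc34 with a median of 0.274. Their differences were -2.00 (SE 0.19) and -1.86 (SE 0.17), with gaps of 1.36 and 1.41.

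AT5G38310 ran from 0.289 to 0.616 in WT with a median of 0.346. In toc34 it was 0.189, 0.167, 0.184 and 0.174 on replicates 1 to 4 and 0.0231 and 0.0555 on replicates 5 and 6, so that its difference of -1.84 (SE 0.45) rests in good part on the last pair. AT2G26680 ran from 0.460 to 0.723 in WT with a median of 0.651 and from 0.0890 to 0.229 in toc34 with a median of 0.158, a difference of -1.83 (SE 0.23). AT1G16080 ran from 0.413 to 0.593 with a median of 0.504 and from 0.0891 to 0.190 with a median of 0.142, a difference of -1.78 (SE 0.22).

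The gene with the next largest drop, AT3G09050, was listed at 0 on replicates 3 and 4 of both genotypes. On the other arrays it was 0.659, 0.709, 0.487 and 0.587 in WT and 0.158, 0.149, 0.186 and 0.166 in toc34, and its difference of -1.69 (SE 0.20) rests on these 8. With the offset, where the zeros count as values, it was 1.99-fold lower in place of 3.23-fold. With AT3G27110, AT5G48110 and AT1G21350 it is among the 4 genes with any value of 0, and 42 of the 46 were measured on all 12 arrays.

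Near the top of the intensity range allowed by the rule, AT1G01730 ran from 0.691 to 1.09 in WT with a median of 0.888 and from 0.253 to 0.708 in toc34 with a median of 0.493, a difference of -0.84 (SE 0.21). At the bottom stood 3 genes with WT medians of 0.119 to 0.156. AT1G65090 ran from 0.106 to 0.150 in WT and from 0.0390 to 0.0884 in toc34. AT1G21350 ran from 0.126 to 0.188 in WT, was listed at 0 on toc34 replicate 6, and ran from 0.0316 to 0.102 on the other 5. AT2G32640 ran from 0.129 to 0.227 in WT and from 0.00835 to 0.101 in toc34, with the largest SE of the 46 beside its difference of -1.56 (SE 0.51), since toc34 replicate 2 lay far below the others. With the offset this difference was -0.90.

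The other genes had differences from -1.52 to -0.73. In order of falling size these were AT2G37750, AT3G54550, AT3G06870, AT5G53920, AT2G38070, AT3G32930, AT1G72020, AT3G04560, AT4G27510, AT2G35450, AT3G44810, AT1G33250, AT4G22190, AT5G49800, AT2G46850, AT5G26850 and AT5G03900. AT5G53920 had the smallest SE of the 46 (difference -1.28, SE 0.13), from 0.764 to 1.02 in WT and from 0.304 to 0.375 in toc34. AT3G32930 had toc34 values of 0.841 and 0.678 on replicates 3 and 4 against 0.157 to 0.321 on the other toc34 arrays, and WT values of 0.728 to 0.985. On the deposited scale its genotypes overlapped, and they lay apart only once each array's median had been subtracted.

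In 5 of the 46 genes the deposited intensities of the genotypes overlapped, and in the other 41 they did not. The gap between the lowest WT and the highest toc34 array had a median of 0.36 and exceeded 1 log2 unit in 7 genes, but was under 0.1 in 8. The narrowest gaps inside the rule were 0.01 in AT5G49800, 0.02 in AT5G03900 and 0.03 in AT2G46850. Just outside it, AT3G57570 missed by -0.004 (difference -0.74), AT1G54500 by -0.05 (-0.29) and AT3G59300 by -0.06 (-0.33). The limit on intensity was as gradual. AT1G64430 and AT1G10310, with WT medians of 0.925 each, stood inside it, and AT2G31800, which lay fully lower with a WT median of 1.01 and a toc34 median of 0.393, stood outside.

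The position of each gene's spot among all spots above 0 on its array gives the drop on a scale free of array brightness. Spots differ in how strongly they hybridise, so this position does not order the transcripts by abundance. The median percentile rank of the 46 genes was 73.2 in WT and 41.5 in toc34. The same medians over the 431 eligible genes were 44.6 and 42.8. In WT 42 of the 46 genes had a median rank over 50, and in toc34 15 did. Every WT value lay above its array's median in 38 genes, and every toc34 value below it in 15. The rule favours genes that were high in WT, so these positions describe the selection as well as the genes.

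**Figure D2:**
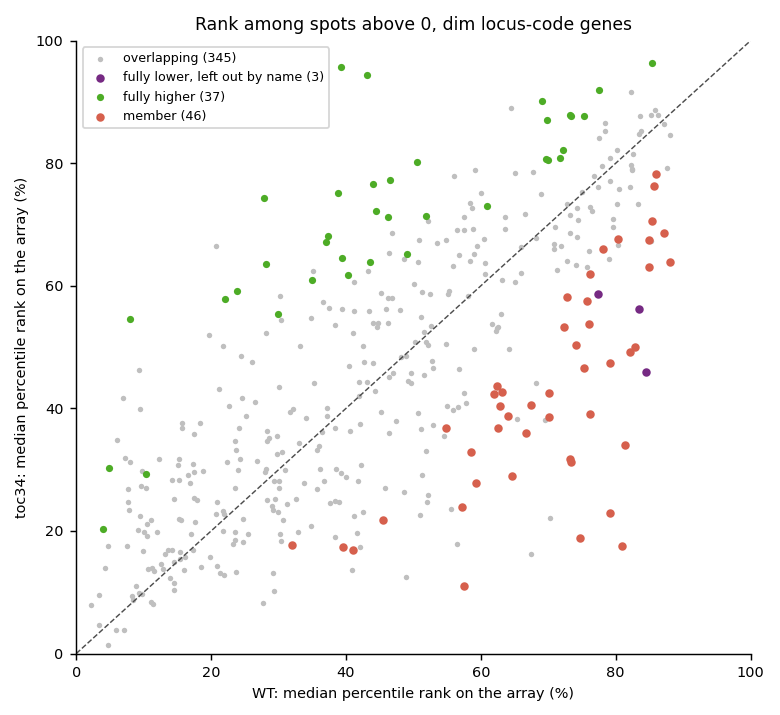
Median percentile rank on the array in WT (x axis, percent) and in toc34 (y axis, percent) for the 431 eligible genes, with the 46 genes in red and the dashed line marking equal ranks. The 46 genes lie below the line, mostly to the right of the WT rank of 50, with toc34 ranks from 11.0 to 78.3.

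Values of the 46 genes were more uneven in toc34 than in WT. The SD between arrays in log2 units was larger in toc34 in 41 of them (89.1%), with a median SD of 0.46 in toc34 and 0.21 in WT. The same held for 78.7% of all tested spots, whose median SDs were 0.58 and 0.31, and for 82.6% of the eligible genes, whose median SDs were 0.64 and 0.33. Array-to-array ranges of centred log2 intensity over 2 units occurred in toc34 in 10 of the 46 genes and in WT in 0. Of the 270 toc34 values of these genes above 0, 17 (6.3%) lay under 0.0411, in 11 of the genes, against 0 of 274 WT values. Over all spots 11.3% of toc34 values and 8.75% of WT values above 0 did. The part of low intensity in the spread was not tested.

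By array, the median centred log2 intensity of the 46 genes was 0.94 on WT replicate 5 and 0.98 on replicate 6, and between 1.17 and 1.24 on WT replicates 1 to 4. In toc34 it ran from -0.54 on replicate 3 to -0.14 on replicate 5. The eligible genes as a whole had medians of -0.27 to -0.14 on WT arrays and of -0.27 to -0.05 on toc34 arrays. The lowest WT array of a gene was replicate 5 in 13 genes and replicate 6 in 13. The highest toc34 array was replicate 2 in 11 and replicate 5 in 11.

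**Figure D3:**
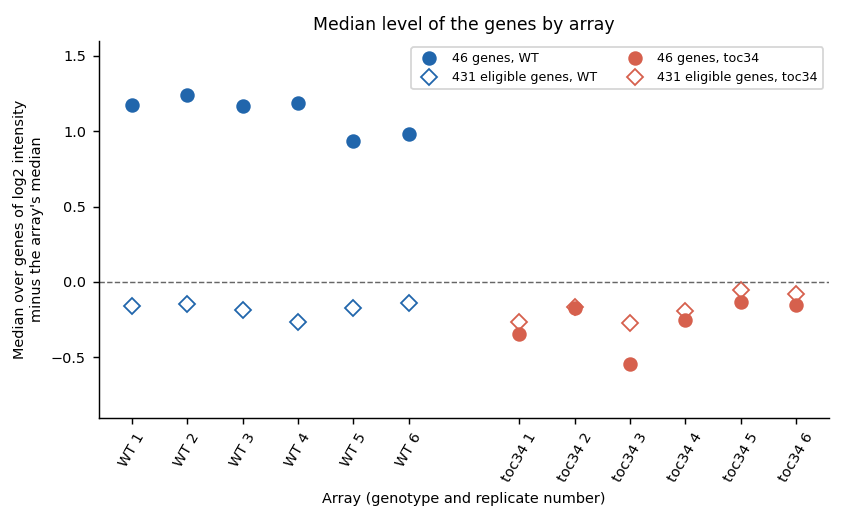
Median over genes of the centred log2 intensity (y axis) on each array (x axis), for the 46 genes (filled circles) and the 431 eligible genes (open diamonds). The filled circles stand between 0.94 and 1.24 on WT arrays and between -0.54 and -0.14 on toc34 arrays, while the diamonds stay between -0.27 and -0.05.

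Arrays with neighbouring replicate numbers (1 and 2, 3 and 4, 5 and 6) were more alike than the remaining arrays of that genotype, with correlations across spots of 0.943 to 0.971 in WT and 0.833 to 0.898 in toc34, against 0.895 to 0.936 and 0.779 to 0.803 for the remaining pairs. They may therefore not be independent, and the differences were also taken within each pair of numbers. The median difference of the 46 genes was -1.37 for replicates 1 and 2, -1.36 for replicates 3 and 4 and -1.37 for replicates 5 and 6, each from the mean of the measured arrays. No gene could be higher in toc34 within a pair, since its genotypes do not overlap, but the size of the drop could vary. It passed 2-fold within all 3 pairs in 15 genes, within 1 or 2 pairs in 30 and within none in 1, AT1G65090 with -0.90, -0.70 and -0.95. AT3G09050, counted among the 30, had no value above 0 on replicates 3 and 4 and is missing from their median. It passed 2-fold within both of the other pairs, at -2.01 and -1.37.

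The drop of a gene differed between the pairs by a median of 0.79 log2 units and by more than 1 in 14 genes. AT5G56070 was among the steadiest, at -1.98, -1.90 and -2.13. AT5G38310 was among the least steady, at -0.69, -1.81 and -3.00, and AT4G04370 stood at -0.30 within replicates 1 and 2 against -2.06 and -1.99 within the others. AT2G32640 went the other way, from -2.52 within replicates 1 and 2 to -0.47 within 5 and 6. Across the 46 genes the drops within pairs correlated at 0.59 (1 and 2 with 3 and 4), 0.36 (1 and 2 with 5 and 6) and 0.59 (3 and 4 with 5 and 6), a description over genes measured on the same arrays.

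**Figure D4:**
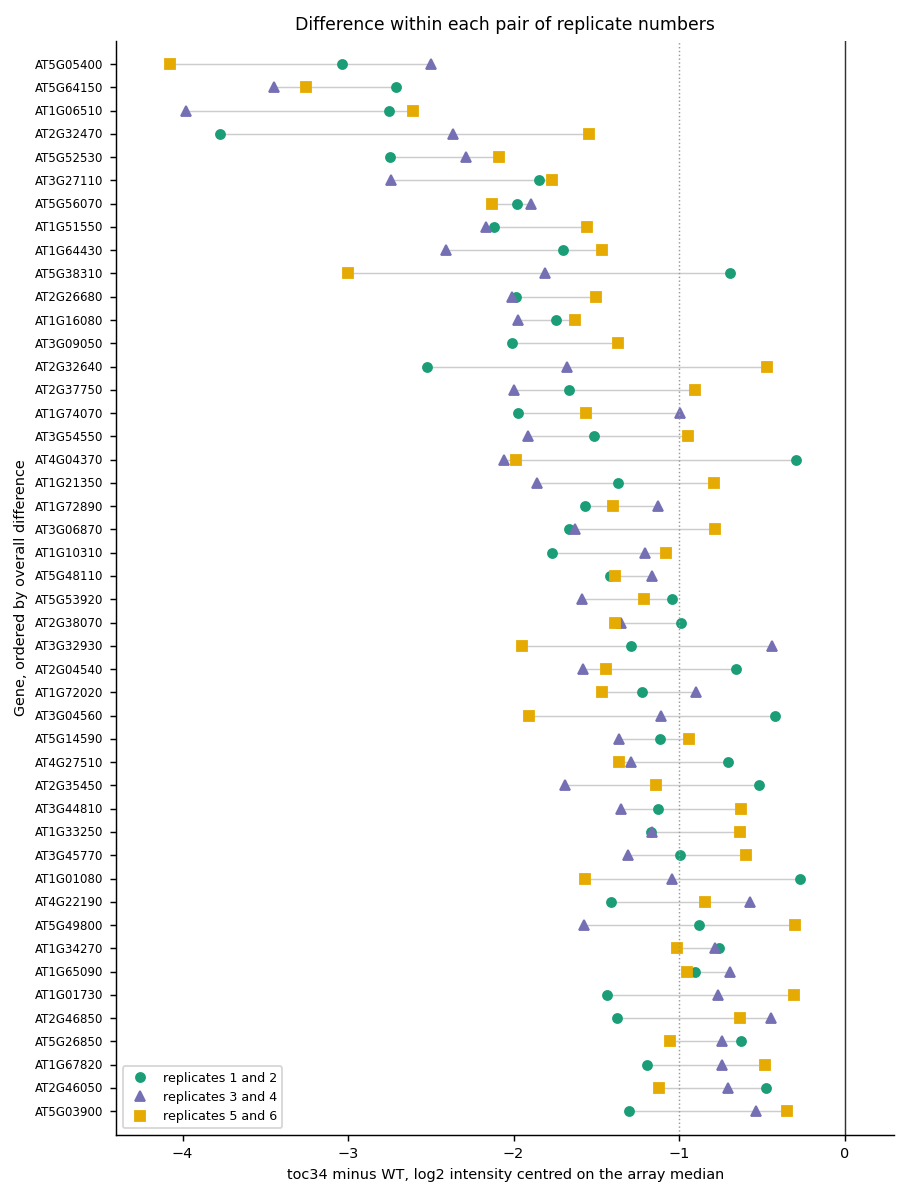
Difference of each of the 46 genes between toc34 and WT in centred log2 intensity (x axis) within replicates 1 and 2 (circles), 3 and 4 (triangles) and 5 and 6 (squares), with genes on the y axis in order of their overall difference. The dotted line marks 2-fold, which 15 genes pass within all 3 pairs. AT3G09050 has no triangle because it was listed at 0 there.

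For 4 of the genes the array has a further spot, annotated to the gene and to others at once. The spot shared by AT1G01080 with AT1G60000 also lay fully lower in toc34, at 0.334 to 0.475 in WT and 0.0904 to 0.350 in toc34, with a difference of -0.85 beside -0.96 for the spot of AT1G01080 alone. The spots shared by the other 3 had positive differences. That of AT2G38070 with AT5G01170 and OPS lay fully higher, from a WT median of 0.106 to a toc34 median of 0.282 (difference 1.56), where the spot of AT2G38070 alone had a difference of -1.24. The spot of AT1G67820 with 3 other loci had a difference of 1.02 beside -0.81, and that of AT5G56070 with AT5G56050 and AT4G26490 had 0.63 beside -2.00. Which gene of a shared spot gave its signal cannot be told from these data.

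On the genome the 46 genes were scattered. Of the eligible genes they made up 13.3% on chromosome 1 (15 genes), 11.5% on chromosome 2 (9), 9.76% on chromosome 3 (8), 4.55% on chromosome 4 (3) and 12.1% on chromosome 5 (11). In the order of protein-coding genes of TAIR10.1 no 2 of them were neighbours, and the closest, AT2G32470 and AT2G32640, were 16 genes apart.

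The arrays themselves differed in brightness. Summed intensity ran from 1988 to 3553 and was lower in toc34 than in WT for each replicate number, while the number of measured spots ran from 2784 to 2974. TOC34 itself was not analysed here, and the labels of the genotypes thus have no check from its own signal. Of markers for seed, root and flower (4 each), 0 stood on a spot of their own. Of 7 leaf photosynthesis markers 1 did, LHB1B2, a light-harvesting chlorophyll-binding protein, at 21.5 to 35.3 in WT and 10.7 to 17.0 in toc34 (difference -0.92). A photosynthesis transcript was thus measured on all arrays, but these markers cannot tell which tissue was used. Of the 7 leaf markers, 1 was listed on a spot shared with other genes, and its values there are not given.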

How the data were processed

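RNA of 6 toc34 and 6 WT samples was measured on 1 array each, grouped by sample title. The deposited values are read as intensities on a linear scale, from the values themselves; the authors' background correction, scaling, label and scanner are not given in the sources used here. Spots set to 0 by such a correction would be lost from the low end. Values of 0 were taken as missing, log2 was taken and each array's median subtracted. The genotypes were set against each other in limma 3.58.1 (lmFit, then eBayes; R 4.3.3, with statmod 1.5.0 for the random block), without covariates, over the 2768 spots with at least 4 values above 0 per genotype, with Benjamini-Hochberg adjustment at 0.05. Differences are toc34 minus WT. Precision is limited by how many arrays there are. The procedure was tested on simulated data, drawn independently for each array with the WT SD in both genotypes. That setting leaves out the wider spread in toc34 and the likeness of neighbouring arrays.

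The members, gene lists and tests were chosen with earlier results of these data known, and the members on this very contrast, so no p-value is given for them. Ranges or values over the arrays are given for the 12 largest drops and the 3 highest and 3 lowest WT medians. Ranges, values or medians are given for the loci whose role is mentioned, which were chosen after their values were seen. Spots were named from the platform annotation and a RefSeq table of TAIR10.1; since the array's build is not named, no coordinates are given. Planned classes by gene description and promoter motifs were not run, because no descriptions or promoter sequences were used here. To see whether equal numbers pair WT with toc34 arrays, each array's departure from its group mean was correlated with that of its namesake. The correlations were 0.119 to 0.273, each above the minimum of 0.1, so a replicate block was also fitted. This pairing comes from the values, not the labels. Alternatives were other scalings, an offset, other minimums, averaging, blocks, pairs of numbers and leaving out each array.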

Additional observations from a re-analysis of the deposited data

Results flagged for a closer look

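Among 94 groups of up to 6 arrays, made of the 46 genes and of their median in each genotype, 4 held an array far from the rest, measured as its gap to the nearest other array over the group's whole range; chance alone gives about 4.7. For AT4G27510 in WT the ratio was 0.735: replicate 1 lay at a centred log2 intensity of 0.15 and the other 5 between 0.71 and 0.91. For AT1G10310, the pterin aldehyde reductase, in toc34 it was 0.707, with replicate 6 at 1.31 and the others between 0.82 and 0.97. For AT1G72890, of the resistance class, in toc34 it was 0.649, with replicate 3 at 0.32 and the others between -0.30 and -0.08. For AT2G35450 in WT it was 0.641, with replicate 6 at 0.72 and the others between 0.35 and 0.49.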

How the results depend on the processing

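The choice of genes largely fixes the sign of the 991 differences of single genes under the alternatives. Of these, 934 moved by less than the SD between arrays and 57 by more, 53 of them within single pairs of numbers and 4 with the offset. Leaving out 1 array, averaging, blocks or stricter minimums can hardly move a difference, so nothing is read from the 934. The 46 genes became 29 with a WT median limit of 0.5 and 90 with neighbouring numbers averaged, where 3 values against 3 separate more easily; with no limit they were 60, on the deposited scale 53 (41 of the 46 among them), with quantile normalization 43 (all among the 46), with the offset 41 (39 shared), and with 1 array left out 45 to 54. The median difference, -1.30, was -1.06 with the offset, -1.47 within replicates 3 and 4 over the 44 genes measured on all of these arrays, and -1.34 to -1.24 with 1 array left out. Relative to the median of all spots it was -1.20, or -1.21 on the deposited scale, where that median moved to -0.20.

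Over all spots limma called 559 lower and 441 higher. With neighbouring numbers averaged these were 185 and 144, with the random block (consensus correlation 0.552) 326 and 277, and within replicates 5 and 6 310 and 248. With 1 array left out they were 482 to 544 and 392 to 453. With the replicate block they were 545 and 442, and 906 of the 1000 calls of the fit without a block were shared. The block changed no call of the 46, which their selection all but fixes, and their median difference was -1.32. Of the calls 44.1% were increases, but 36.2% on the deposited scale and 50.6% within replicates 1 and 2, where 379 spots were called lower and 388 higher. Spots fully lower and fully higher made up 21.8% and 17.1% with averaging, against 13.2% and 10.2%. The pairs of numbers were chosen after seeing the data.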

Other observations

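Some locus-code genes with a WT median under 1 could not meet the rule because toc34 held too few values above 0. Of these, 14 had values on all 6 WT arrays. AT4G38040, singled out after its values were seen, was the highest of them in WT, at 0.327 to 0.681, and was listed at 0 on 5 of the 6 toc34 arrays, with 0.122 on the remaining one. AT4G12270, at 0.251 to 0.576 in WT, had no value above 0 on the toc34 arrays, and nor had AT3G50350 and AT4G03150. AT3G25410 ran from 0.0589 to 0.228 in WT, was above 0 on 3 toc34 arrays and reached 0.152 there, within its WT range. AT2G47360, AT3G19370, AT3G60590, AT5G65250 and AT5G15280 each reached above their highest WT value on a toc34 array. For AT2G47360 these values were 0.209 in toc34 and 0.142 in WT.

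The zeros of AT3G09050 on replicates 3 and 4 of both genotypes were not alone. On the array 10 spots were listed at 0 on exactly these 4 arrays and above 0 on the other 8, against 0 spots for replicates 1 and 2 and 1 spot for replicates 5 and 6. AT3G09050 was the only one of the 10 with a locus-code gene of its own, and its measured values were 0.149 or more. What the zeros go with was not tested.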
